A study of Mus musculus with 4 samples.

Results

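The regions described here are the accessible chromatin peaks of mouse inguinal white adipose tissue (iWAT) whose centre lies more than 100 kb from the start of every protein-coding gene, called distal peaks. Of the 189598 peaks the authors called, 41248 (21.8%) met this rule, with starts taken from GENCODE vM21 on GRCm38 (mm10). Accessibility came from single-nucleus ATAC-seq (snATAC-seq), in which the Tn5 transposase cuts open DNA and barcodes assign each cut to a nucleus. The animals were 21 male C57BL/6J mice aged 8 weeks at the start, with 3 in each of 7 groups. The control group, day0RT, was killed before any intervention at 22 °C. The groups day1C, day3C and day7C were kept in the cold (6.5 °C by the sample labels) for 1, 3 or 7 days. The groups day1CL, day3CL and day7CL received CL-316,243 (CL), a selective agonist of the β3-adrenergic receptor, at 1 mg/kg at 22 °C for the same times. Nuclei came from whole tissue.

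Distal peaks are mostly candidate enhancers, stretches of DNA where transcription factors bind and from which they can act on promoters far along the chromosome. They are as a rule more restricted to 1 kind of cell than promoters, and genes of development and cell identity often lie among large gene-poor regions rich in them. In iWAT, cold or β3-adrenergic stimulation causes beiging, the appearance of thermogenic beige adipocytes within white fat, and enhancers bound by factors such as PPARγ, C/EBP, EBF2 and NFIA are known to take part in it. Background of this kind assigns no gene to a given distal peak, and genes below are named by position only.

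The central 300 bases of 6 distal peaks that the results turn on are given first, on the plus strand of GRCm38 (mm10). Capitals mark matches to the short consensus strings described with the motif shares further on. The peaks were the one 221 kb from the start of Nfia that was more open in beige adipocytes, the one 140 kb from Igf1 that was more open in white adipocytes, the adipocyte peak between Ppargc1a and Dhx15, the peak beyond the 3′ end of Acaca that differed between CL and cold, the peak 175 kb from Nfkbiz that rose after 7 days of CL, and a B cell peak in the immunoglobulin lambda region. The third carries the label Ppargc1a, whose start is 494 kb away, although Dhx15 is nearer at 128 kb.
Nfia beige-high peak, chr4:97551311-97551610: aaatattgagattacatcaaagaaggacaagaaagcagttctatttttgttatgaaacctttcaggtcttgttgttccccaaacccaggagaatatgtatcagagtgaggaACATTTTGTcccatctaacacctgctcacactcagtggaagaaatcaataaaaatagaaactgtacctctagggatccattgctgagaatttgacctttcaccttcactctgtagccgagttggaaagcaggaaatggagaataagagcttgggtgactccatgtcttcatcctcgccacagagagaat
Igf1 white-high peak, chr10:87718595-87718894: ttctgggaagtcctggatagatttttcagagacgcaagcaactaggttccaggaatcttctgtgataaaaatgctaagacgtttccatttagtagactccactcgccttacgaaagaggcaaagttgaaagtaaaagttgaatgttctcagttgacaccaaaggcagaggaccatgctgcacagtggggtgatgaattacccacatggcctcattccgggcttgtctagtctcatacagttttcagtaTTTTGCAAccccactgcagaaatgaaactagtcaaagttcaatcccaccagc
Ppargc1a adipocyte peak, chr5:52061920-52062219: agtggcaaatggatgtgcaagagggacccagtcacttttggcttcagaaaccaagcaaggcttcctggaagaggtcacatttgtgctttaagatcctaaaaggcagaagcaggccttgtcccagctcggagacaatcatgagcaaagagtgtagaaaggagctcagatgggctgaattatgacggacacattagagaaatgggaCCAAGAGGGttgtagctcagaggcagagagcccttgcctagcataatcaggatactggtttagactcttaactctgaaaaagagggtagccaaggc
Acaca end peak, chr11:84406666-84406965: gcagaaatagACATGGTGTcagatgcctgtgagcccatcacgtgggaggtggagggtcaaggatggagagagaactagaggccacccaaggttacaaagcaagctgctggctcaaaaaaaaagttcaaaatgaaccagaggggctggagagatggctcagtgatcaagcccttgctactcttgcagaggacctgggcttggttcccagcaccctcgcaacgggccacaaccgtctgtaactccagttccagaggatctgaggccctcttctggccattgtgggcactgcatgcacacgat
Nfkbiz peak, chr16:55664060-55664359: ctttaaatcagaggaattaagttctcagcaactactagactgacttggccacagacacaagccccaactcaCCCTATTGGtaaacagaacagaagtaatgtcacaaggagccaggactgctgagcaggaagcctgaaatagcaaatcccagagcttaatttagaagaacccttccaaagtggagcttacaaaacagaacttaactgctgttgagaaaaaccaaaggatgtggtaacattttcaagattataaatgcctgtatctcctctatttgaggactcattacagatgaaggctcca
immunoglobulin lambda peak, chr16:19179397-19179696: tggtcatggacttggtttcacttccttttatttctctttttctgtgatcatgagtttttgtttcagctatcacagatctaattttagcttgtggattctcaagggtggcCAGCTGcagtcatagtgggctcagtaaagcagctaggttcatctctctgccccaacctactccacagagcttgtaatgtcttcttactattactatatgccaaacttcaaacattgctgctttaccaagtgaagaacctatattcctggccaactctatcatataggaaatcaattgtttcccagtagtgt
In the same order, the capitals mark 1 match each to the NR3C, CEBP, CTCF, NR3C, CTCF and E-box strings.

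The libraries behind these values held 1111 to 2021 nuclei per mouse and 1340376 to 6916698 entries, where an entry is a peak with reads in a nucleus. Each entry is 0 or 1 in the deposited matrix, so a count here is the number of nuclei of a mouse and cell type with an entry in a peak. Adipocyte nuclei ran from 29 and 68 in day1CL replicates 1 and 2 to 933 in day3CL replicate 2, and B cells were 5.94% of nuclei in day1CL replicate 3 and 12.4% in day3CL replicate 2, against 29.8% to 46.5% in the other mice. Of 28031 distinct barcode sequences, 4218 occurred in more than 1 mouse, always in mice of the same treatment arm and replicate number, and were kept as separate nuclei. The authors' 12 clusters were checked with marker genes. Adipocyte, progenitor (APC1, APC2), B cell and T cell markers were highest in their own clusters for all 5, 6, 5 and 5 genes. Macrophages held 3 of 5, the vascular endothelial cluster (VEC) 2 of 5 and dendritic cells 1 of 5. The cluster named VSMC held 0 of 5 smooth muscle markers (Acta2, Myh11, Tagln, Cnn1, Notch3) and 4 of 5 skeletal muscle markers, so it is called the VSMC cluster below without reading smooth muscle into it.

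Distal peaks were spread over the genome in 2355 intervals (2339 between neighbouring coding gene starts and the others at chromosome ends), and 3557 genes were the nearest coding gene of at least 1 of them. Positions more than 100 kb from a coding start make up 44.2% of the sequenced genome but held 21.8% of the peaks. The median distance of a distal peak from the nearest coding start was 187 kb, and the farthest lay 2564 kb away, between Pcdh20 and Pcdh9 on chromosome 14, both genes of protocadherin adhesion molecules. The 3 peaks just inside the limit lay 100.001 kb from Nrip1, 100.005 kb from Ppif and 100.01 kb from Ralgapa1, and were open in 0.421%, 0.777% and 0.264% of nuclei. The 3 just outside lay 99.998 kb from Klf3, 99.998 kb from Slc10a6 and 99.99 kb from Sfrp1, and were open in 0.326%, 0.144% and 0.31% of nuclei. By chromosome, distal peaks were 12.8% of peaks on gene-dense chromosome 11 and 31.4% on chromosome 13.

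Being far from a gene start did not mean lying outside genes. Of the distal peaks, 43.8% lay inside the body of a coding gene, against 61.3% of the peaks nearer to a start, and 1.79% overlapped a coding exon, against 11.2%. A further 9.79% lay only in a non-coding gene and 46.4% lay between genes. Starts of non-coding genes were within 2 kb of 5.23%. A stricter count that also uses the starts of all coding transcripts left 26626 distal peaks, and 1 that uses the starts of all annotated genes left 8976. Distal peaks were slightly shorter than the others (median 368 against 400 bases), lower in GC (median 44.4% against 47.6%) and held a median of 5 against 6 CpG dinucleotides.

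Each distal peak was open in few nuclei. The median distal peak had entries in 0.316% of all 32552 nuclei and the median nearer peak in 0.519%. The mean number of open nuclei per peak went down with distance, from 1178 within 2 kb of a coding start to 264 at 10 to 50 kb, 206 at 100 to 200 kb and 151 beyond 500 kb. Distal peaks held 11.8% of all entries. Only 164 were open in more than 5% of nuclei and 16 in more than 10%, against 7771 and 1857 of the nearer peaks. The most open was in Foxn3 (12.8% of nuclei), where it overlapped a coding exon and lay 0.237 kb from the start of a coding transcript, and the next, in Rasgef1b (12.3%), lay 0.002 kb from one. These peaks are distal only because the rule used 1 start per gene. The next pair, between Amigo2 and Rpap3 and between Gm5426 and Btg1, lay more than 100 kb from any coding transcript start and were lymphocyte peaks. The Amigo2 peak was open in 16.7% of B cells and 1.97% of white adipocytes, and the Btg1 peak in 17.5% and 1.38%.

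Short consensus strings were counted on both strands in the central 500 bases of each peak, as a description with no test. The strings were TCAAGGTCA for ESRR (estrogen-related receptors), CTATTTATA for MEF2, CAAAGGTCA for PPAR-RXR, ACANNNTGT for NR3C (steroid receptors), TTGCNNAA for CEBP, GAGGAAGT for ETS, TCCCNNGGG for EBF, TGTGGTTT for RUNX, ATGCAAAT for POU2, ACATTCCA for TEAD and CCANNAGGG for CTCF. For nuclear factor I (NFI) the string was CTTGGCA. For AP-1 the string was TGANTCA. For GATA factors it was AGATAAG. For the E-box of helix-loop-helix factors it was CAGCTG. Matches of different strings may overlap, the ESRR and PPAR-RXR strings sharing their last letters. CEBP strings were in 31.1% of distal and 24.4% of nearer peaks, AP-1 in 20.1% and 17.3%, NR3C in 19% and 16.1%, and NFI in 15.7% and 13.4%. CTCF and EBF strings were less frequent in distal peaks, with CTCF in 8.57% against 10.6% and EBF in 8.39% against 10.3%. GC content was also lower in distal peaks (mean 44.5% against 48.6%), and its part in these shares was not tested.

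Cell types differed in how much of their open chromatin was distal. In each mouse and cell type, the share of entries in distal peaks was taken of all entries of that type. It was highest in the adipocyte progenitors, at 16.4% ± 0.64 in APC2 (SD, n = 19 mice) and 16.2% ± 1.12 in APC1 (n = 20). It was 15.1% ± 0.68 in white adipocytes (n = 21), 14.5% ± 1.06 in beige adipocytes (n = 19), 11.3% ± 0.774 in VEC (n = 15) and 10.9% ± 0.435 in the VSMC cluster (n = 10). Immune cells were lower, with 9.68% ± 0.504 in macrophages, 9.42% ± 0.355 in dendritic cells, 8.58% to 8.67% in the 3 T cell clusters and 8.19% ± 0.529 in B cells. The highest B cell value, 9.15%, lay below the lowest white adipocyte value, 13.7%.

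**Figure D1:**
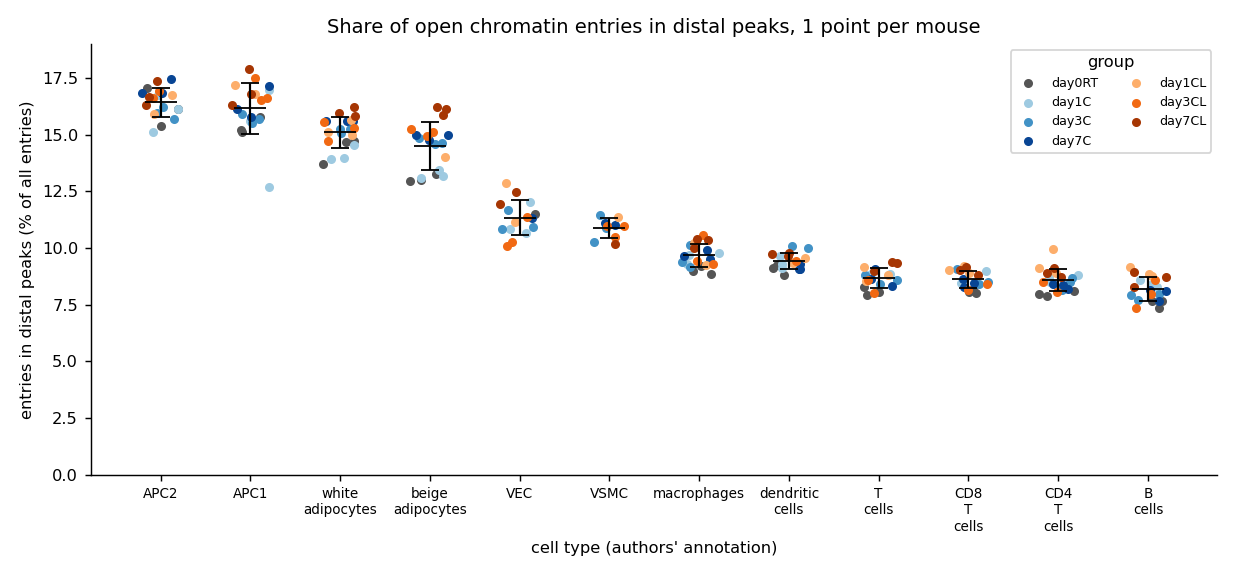
Percentage of open chromatin entries that lay in distal peaks (vertical axis) for each annotated cell type (horizontal axis). Points are mice coloured by group, the long dash and bars are the mean and SD over mice. Progenitors and adipocytes lie above 12%, and the T and B cell clusters at or below 10%.

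Within mice, every other cell type differed from white adipocytes (two-sided sign-flip permutation test, 100000 resamples, adjusted over 11 cell types). APC2 was higher by 1.33 percentage points in 19 of 19 mice (adjusted p = 2e-05) and APC1 by 1.08 in 19 of 20 (adjusted p = 0.00011). With the starts of all annotated genes in the rule, the APC1 difference was 0.10 and did not pass (permutation p = 0.0979). Beige adipocytes were lower in 17 of 19 mice, with a mean difference of -0.597 points (adjusted p = 0.00011). B cells were lower by 6.92 points on average in 21 of 21 mice (difference -6.92, adjusted p = 2e-05, from the smallest p that the resamples can give). The share of entries within 2 kb of a coding start ran the other way, with 26.8% in white adipocytes and 43.2% in B cells. Among entries outside that 2-kb window the distal share was still 23.8% in APC2, 20.6% in white adipocytes and 14.4% in B cells. Entries per nucleus also differed, with 4103 in white adipocytes, 2643 in APC2 and 1319 in B cells. The comparison was repeated on the 18709 nuclei with at least 1000 entries, each thinned to 1000. No cell type then changed direction or lost its call against white adipocytes. The 13843 shallower nuclei were left out of that repeat.

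The ratio of the white adipocyte to the B cell share was larger farther out, while both shares were smaller. Peaks 100 to 200 kb from a coding start held 8.64% of white adipocyte and 5.14% of B cell entries. Peaks 200 to 500 kb away held 5.04% and 2.53%, and peaks beyond 500 kb held 1.44% and 0.528%. The progenitors stood highest in the bins from 100 to 500 kb, at 9.26% and 5.75% in APC2.

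To see which cells opened single distal peaks, nuclei were grouped into 7 classes (adipocytes, progenitors, VEC, the VSMC cluster, myeloid cells, B cells and T cells), and each class was compared with the mean of the others by edgeR's quasi-likelihood test. The clusters were drawn by the authors from the same matrix, so these calls describe the classes and test nothing independent. The fit had the group but not the mouse as a term, although the classes came from the same mice. Its SE and p values therefore ignore that pairing, and counts with the mouse as a block are given with the alternatives. Only 1059 distal peaks had enough counts, of 15403 tested in all. Progenitors were higher at 433 of them (40.9%), against 25.0% of all tested peaks, VEC at 212 (20.0% against 8.85%) and the VSMC cluster at 219 (20.7% against 13.5%). Adipocytes were higher at 455 (43.0% against 52.7%), B cells at 427 (40.3% against 40.9%), T cells at 401 (37.9% against 44.0%) and myeloid cells at 340 (32.1% against 29.0%). Of all 15403 tested peaks, 7840 lay within 2 kb of a coding start, so this background leans on them. There, 61.7% were higher in adipocytes, 37.2% in B cells, 45.3% in T cells and 21.3% in myeloid cells. At 10 to 50 kb the shares were 41.9%, 46.3%, 44.0% and 38.8%. For progenitors, VEC and the VSMC cluster they were 18.9%, 4.45% and 8.60% within 2 kb, and 29.3%, 12.5% and 18.5% at 10 to 50 kb. Each of the 1059 peaks was higher in at least 1 class, with 170 in 1 class, 434 in 2 classes and 373 in 3 classes. The count filter kept only 2.57% of distal peaks, those with enough counts in enough libraries. The shares and this tally therefore hold for the kept peaks and do not measure how restricted distal peaks are. These counts depended on scaling, and far more on the minimum of nuclei per library. With at least 30 nuclei more distal peaks could be tested, and the counts are given with the alternatives at the end. With total entries as library size, the median log2 difference over all tested peaks moved from 0.20 to -0.62 for adipocytes, from 0.02 to -0.29 for progenitors, from -0.42 to 0.05 for VEC, from 0.05 to 0.41 for B cells and from 0.10 to 0.31 for T cells. The distal counts became 320 for adipocytes, 388 for progenitors, 265 for VEC, 465 for B cells and 430 for T cells. Higher calls went from 58.6% to 38.3% of all distal calls in adipocytes, from 82.8% to 65.4% in progenitors and from 67.3% to 92.7% in VEC. Leaving out replicate 1 of every group gave 270 for progenitors and 124 for VEC.

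The distal peaks that stood out most in each class were of large size and kept their call under every alternative that gave a value. Levels are CPM, counts scaled to the library's TMM-adjusted total over tested peaks. The peak chr5:52061207-52062934, between Ppargc1a, which encodes the thermogenic coactivator PGC-1α, and Dhx15, ran from 78.3 to 280 CPM over 21 mice in adipocytes (median 179) and had a median of 0 in every other class. It lay 494 kb from the start of Ppargc1a and 128 kb from that of Dhx15, the nearest, with a coding transcript start 95.7 kb away. Its log2 difference was 3.54 ± 0.09 (SE, edgeR adjusted p = 1.63e-188). Adipocyte peaks in Patj (log2 3.90) and between Saraf and Dusp4 (log2 3.81) had medians of 193 and 208 CPM in adipocytes and at most 2.0 CPM in the other classes. The adipocyte and non-adipocyte ranges of these 3 peaks did not overlap. A coding transcript start lay 10.05 kb from the Patj peak.

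In B cells, a pair of the 3 leading distal peaks lay between Hira and Olfr164 on chromosome 16, in the immunoglobulin lambda light chain region, whose gene segments GENCODE does not class as protein-coding. The peak chr16:19178792-19180302 ran from 239 to 367 CPM in B cells, from 0 to 176 in myeloid cells and from 0 to 53.4 in T cells (log2 3.47 ± 0.08, edgeR adjusted p = 1.56e-219). It was open in 8.5% of all nuclei. The other peak of the pair lay 0.978 kb from the start of a non-coding gene. The third B cell peak lay between Trib2 and Lpin1, with a median of 198 CPM in B cells, 16.7 in T cells and 13.9 in adipocytes. T cell peaks lay between Gabra5 and Atp10a (median 185 CPM in T cells, 26.4 in progenitors), between Vrk1 and 3110018I06Rik and between 4933412E24Rik and Fam84b. Their log2 differences were 3.34 to 3.38, and the second was at 0 in at least 1 T cell library. The second lay 0.222 kb and the third 0.177 kb from the start of a non-coding gene.

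Progenitor peaks lay in Rbms3 (median 211 CPM, range 125 to 353, log2 3.83), between Fbxl17 and Fer (median 147 CPM) and between Dact1 and Daam1, genes of Wnt signalling (median 202 CPM). The last was also open in adipocytes at a median of 39.5 CPM. Myeloid peaks lay in Cadm1, Tiam1 and Ank2 (medians 107 to 124 CPM, log2 2.99 to 3.19), each with at least 1 mouse at 0 in myeloid cells. In the VSMC cluster they lay in Phkb, which encodes a subunit of phosphorylase kinase, in Lrmda and near Mn1 (medians 140 to 176 CPM over 10 mice, log2 3.75 to 3.87). The Phkb peak was 0.281 kb from a coding transcript start. Such starts also lay 8.82 kb from the Tiam1 peak and 24.8 kb from the Rbms3 peak. They lay 31.1 kb from the Lrmda peak and 53.6 kb from the Ank2 peak. No VEC peak had a mean of 5 counts per library, the minimum set for naming a peak.

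Among class-higher distal peaks, ETS strings were in 16.6% of those higher in B cells, 16.2% in T cells and 19.4% in myeloid cells, and in 3.74% of those higher in adipocytes, against 10.4% of all 1059 tested. RUNX strings were in 13.5% of the T cell and 10.5% of the B cell peaks, against 7.37%. NFI strings were in 20.0% of the adipocyte and 18.2% of the progenitor peaks, against 13.5%. The sets overlap, and the shares carry no test.

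Beige and white adipocytes, both present in 19 mice, differed at a large part of the distal peaks that could be tested. Of 3151 distal peaks tested, 575 (18.2%) were higher in beige adipocytes, against 12.8% of all 24854 tested peaks, and 597 (18.9%) were higher in white adipocytes, against 14.4%. The median log2 difference was -0.03 over distal peaks and -0.04 over all peaks. With total entries as library size the median over all peaks became 0.08, and the split became 796 higher in beige and 407 in white. The fit had the group but not the mouse as a term. With the mouse as a block, 775 were higher in beige and 991 in white. DESeq2 called 591 and 504. Without a filter on low counts, 1301 were higher in beige and 8109 in white. Without day1CL replicate 3 the total rose from 1172 to 1911, with 882 higher in beige and 1029 in white. The clusters come from the same matrix, so the counts describe them. By distance, the share of tested peaks higher in beige was 4.39% within 2 kb of a coding start, 17.1% at 10 to 50 kb and 17.6% to 19.3% in the 3 distal bins.

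**Figure D2:**
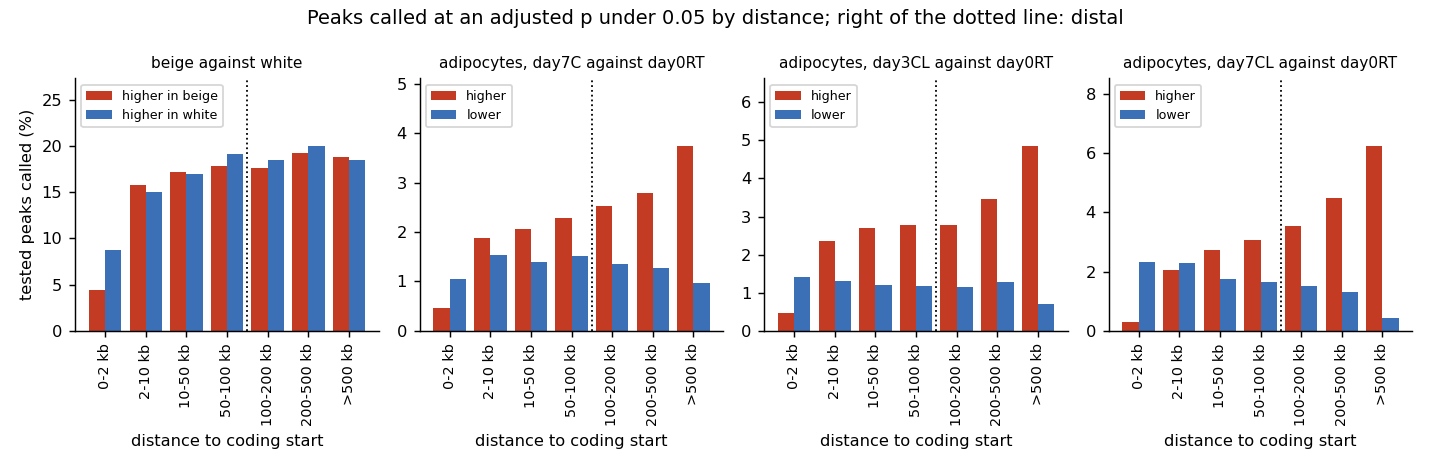
Percentage of tested peaks called at an adjusted p under 0.05 (vertical axis, a different scale in each panel) by distance from the nearest coding gene start (horizontal axis). Red bars are peaks higher in the first-named group and blue bars peaks lower, or higher in white adipocytes in the first panel. For day7CL the red bars go from 0.284% within 2 kb to 6.24% beyond 500 kb, while beige and white calls level off beyond 2 kb.

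The beige-high peak with the largest difference was chr1:105107452-105108536, between Cdh20 and Rnf152. It ran from 22.0 to 111 CPM in beige adipocytes (median 51.8) and from 0 to 24.6 in white (median 11.8). It was higher in beige in 19 of 19 mice (log2 1.85 ± 0.16 SE, edgeR adjusted p = 1.69e-24). The peak chr4:97551000-97551922, 221 kb from the start of Nfia, a transcription factor of the brown fat programme, had a median of 58.9 CPM in beige (22.0 to 93.6) and 12.4 in white (0 to 30.7). It was also higher in 19 of 19 mice (log2 1.63 ± 0.16, adjusted p = 9.45e-20), and the start of a coding transcript lay 33.1 kb from it. The other named beige-high peaks lay 161 kb from Jun (beige median 30.6, white 6.22 CPM), in Dysf (33.6 and 8.39 CPM) and between Trim52 and Slitrk1 (34.5 and 8.78 CPM), and were higher in beige in 18, 16 and 17 of 19 mice. In each of these 3 some beige libraries were at 0 and the ranges of the cell types overlapped. The Dysf peak lay 9.22 kb from the start of a coding transcript. The peak between Trim52 and Slitrk1 lay inside the non-coding gene Gm36107, 0.415 kb from the start of a non-coding gene.

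The named white-high distal peaks had log2 differences of larger size. The peak chr10:87718318-87719173, 140 kb from Igf1, the gene of insulin-like growth factor 1, ran from 19.9 to 84.6 CPM in white adipocytes (median 42.1) and from 0 to 26 in beige (median 2.80). It was lower in beige in 19 of 19 mice (log2 -2.08 ± 0.20, adjusted p = 6.21e-20). Peaks in Tshz2, a zinc finger gene, and between Fam173b and Tas2r119 had white medians of 52.7 and 58.7 CPM and beige medians of 0 and 7.66 CPM, with log2 differences of -1.99 at both. The peak between 4933415F23Rik and Ogfrl1 (log2 -2.10) and the one in Sema5a, which encodes a semaphorin guidance molecule (log2 -2.03), had beige medians of 0 CPM against 30.4 and 28.6 CPM in white. All 5 white-high peaks were lower in beige in 19 of 19 mice. A coding transcript start lay 62.3 kb from the Tshz2 peak. Beige libraries were small, and the 5 peaks had 10 to 23 counts each over all beige libraries.

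**Figure D3:**
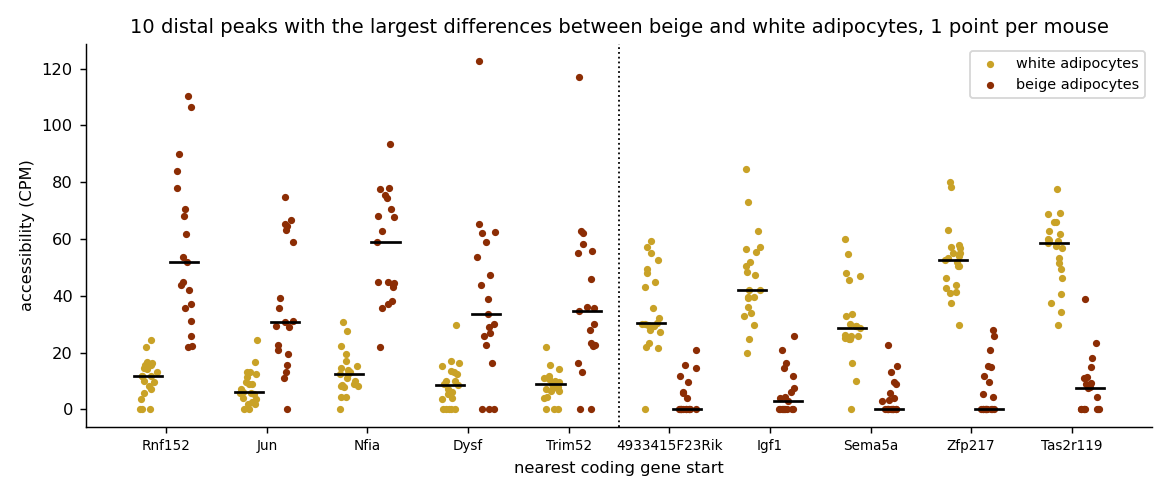
Accessibility in CPM (vertical axis) of the 10 named distal peaks in white (gold) and beige (brown) adipocytes, 1 point per mouse and a black line at the median. Peaks are labelled by the nearest coding gene start, which is that of Zfp217 for the peak in Tshz2. In the 5 peaks left of the dotted line the beige median lies between 30.6 and 58.9, and in the 5 on the right it lies at or below 7.66.

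EBF strings were in 18.4% of the beige-higher distal peaks, 7.71% of the white-higher and 13.2% of all 3151 tested. ESRR strings were in 2.78%, 0.503% and 1.11%, and PPAR-RXR strings in 4.0%, 1.84% and 2.35%. CEBP strings ran the other way, at 35.5% of beige-higher, 46.4% of white-higher and 40.8% of tested peaks.

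Of 20 thermogenic genes, 7 were the nearest coding gene of 141 distal peaks. Between beige and white adipocytes 29 of these were tested. Over tested distal peaks 18.2% were higher in beige and 18.9% in white, and over all tested peaks 12.8% and 14.4%. Of the 29, 13 were higher in beige and 0 in white. They lay near Prdm16, a regulator of brown and beige identity (4), Slc4a4, a sodium bicarbonate cotransporter (3), Ppargc1a (2), Ebf2, an early B cell factor of the brown lineage (2), Dio2, the type 2 deiodinase that activates thyroid hormone (1), and Esrrg, an estrogen-related receptor (1). Of 20 general adipocyte genes, 5 were nearest to 127 distal peaks. Of 25 tested, 10 were higher in beige and 1 in white, with 7 of the former and the latter near Nfib, a nuclear factor I gene, 2 near Nfia and 1 near Cd36, the fatty acid transporter. Of 50 developmental transcription factors, 49 were in the annotation and 44 were nearest to 1703 distal peaks. Of 136 tested, 19 were higher in beige and 29 in white. The lists were not independent of earlier results of these data.

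Some intervals held several distal peaks higher in one adipocyte type. Of the intervals between coding starts that held a distal peak, 348 had at least 1 beige-higher peak and 95 had both kinds. The interval from Pde4d, a cyclic AMP phosphodiesterase, to Rab3c held 11 beige-higher and 0 white-higher among 24 tested distal peaks. The interval from Mpdz to Nfib held 11 and 1 of 26, and the one from Mrtfb to Parn 9 and 0 of 17. The intervals from Lrmda to Kcnma1 and from Trps1 to Eif3h held 8 white-higher and 0 beige-higher each, of 15 and 10 tested. These intervals were chosen for their counts, beside 18.2% beige-higher and 18.9% white-higher over all tested distal peaks.

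Cold and CL were next compared with day0RT. In adipocytes (white and beige together) the distal share was 13.6%, 14.6% and 14.6% in the 3 day0RT mice. It was 13.9%, 13.8% and 14.4% in day1C, 15.2%, 15.0% and 15.2% in day3C, and 15.4%, 15.4% and 15.3% in day7C. In the CL groups it was 15.2%, 15.0% and 14.8% in day1CL, 14.7%, 15.5% and 15.3% in day3CL, and 16.2%, 15.9% and 15.9% in day7CL. All mice of every group except day1C lay above all day0RT mice, and the exact permutation p of each was 0.1, the smallest that 3 against 3 allows. The largest mean difference was 1.74 percentage points in day7CL. The order held in the bins farthest out, where peaks beyond 500 kb held 1.23% to 1.29% of adipocyte entries in day0RT, 1.48% to 1.49% in day7C and 1.56% to 1.62% in day7CL.

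**Figure D4:**
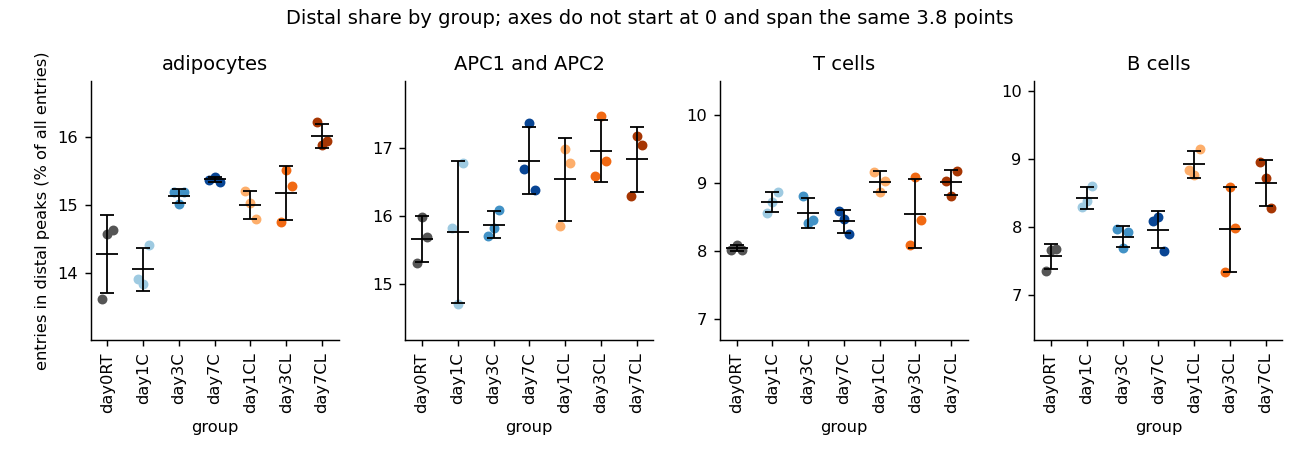
Percentage of entries in distal peaks (vertical axes, which do not start at 0) by group (horizontal axes) in adipocytes, APC1 and APC2 together, T cells and B cells. Points are mice, the dash and bars are the mean and SD of 3 mice. Day0RT has the lowest or next to lowest mean in each panel.

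The distal share also moved in other cells and with other measures. In B cells it was 7.36%, 7.67% and 7.68% in day0RT, 8.77% to 9.15% in day1CL, 8.29% to 8.60% in day1C and 8.28% to 8.95% in day7CL, and 7.69% to 7.96% in day3C, with no overlap (exact permutation p = 0.1 each), while day7C and day3CL overlapped day0RT. T cells were at 8.03%, 8.10% and 8.02% in day0RT and 9.17%, 8.87% and 9.04% in day1CL, and macrophages at 8.87% to 9.22% in day0RT and 10% to 10.4% in day7CL, also without overlap. Adipocyte entries within 2 kb of a coding start went from 28.8% ± 1.51 in day0RT to 26.4% ± 0.444 in day7C and 25.1% ± 0.797 in day7CL. Among adipocyte entries outside 2 kb the distal share was 19.6% to 20.3% in day0RT and 21.3% to 21.4% in day7CL. Beige nuclei were 7.69% to 12.2% of adipocytes in day0RT, 26.1% to 32.5% in day7C and 14.5% to 23.5% in day7CL. White adipocytes taken alone gave 13.7% to 14.7% in day0RT and 15.8% to 16.2% in day7CL. The summed level of 4 B cell marker genes (the list without Ebf1, which adipocytes also use) in adipocyte libraries was 89.3 to 123 CPM in day0RT, 53.0 to 64.2 in day1CL and 93.6 to 107 in day7CL, against 1047 in pooled B cells. Entries per adipocyte nucleus ran from 2149 to 7983 over mice. The part of depth, cell makeup and B cell signal in these differences was not tested.

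Single distal peaks were tested in adipocytes in 1 fit over all 21 mice, with 7428 distal peaks among 47835. After 7 days of CL, 305 distal peaks were higher than in day0RT and 99 lower, or 4.11% and 1.33%, against 2.3% and 1.89% of all tested peaks. After 7 days of cold 203 were higher and 96 lower, or 2.73% and 1.29%, against 1.8% and 1.34%. At day 3, CL gave 238 higher and 85 lower (background 2.21% and 1.25%) and cold 88 and 43 (0.644% and 0.631%). At day 1, CL gave 88 higher and 106 lower (0.891% and 1.17%) and cold 9 and 27 (0.0815% and 0.132%). With the replicate number as a block, the totals of 36 at day1C and 131 at day3C became 18 and 85. Over the 6 comparisons, which share the day0RT mice, 742 of the 7428 distal peaks were called at least once. This union has no share over all peaks beside it, so only the single comparisons can be set against the background. The median log2 difference of distal peaks at day7CL was 0.14 and that of nearer peaks -0.03, and at day7C the values were 0.09 and -0.02.

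The excess of higher over lower calls grew with distance. At day7CL, 0.284% of the peaks within 2 kb of a coding start were higher and 2.33% lower, while at 100 to 200 kb 3.53% were higher and 1.5% lower, and beyond 500 kb 6.24% of 721 tested peaks were higher and 0.416% lower. At day7C the share higher went from 0.47% within 2 kb to 3.74% beyond 500 kb, and at day3CL from 0.47% to 4.85%.

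The number of these calls was not robust. With total entries as library size, day7CL had 274 distal peaks higher and 132 lower, and 994 and 1275 over all tested peaks. The main fit had 1101 higher and 902 lower over all tested peaks, so the balance of this background moved with scaling. DESeq2, on the same counts, called 0, 0 and 4 distal peaks for 1, 3 and 7 days of cold and 5, 0 and 2 for CL, and gave no adjusted p to 2104 to 4317 of the 7428 in all but day1C. At an unadjusted p under 0.05 it had 522 to 944 distal peaks per comparison and edgeR 906 to 1636. The day7CL total of 404 fell to 58 without day7CL replicate 1 and to 229, 200 and 92 without day0RT replicates 1, 2 and 3. The day7C total of 299 fell to 105 without day7C replicate 1 and to 66 without day0RT replicate 3, and the day3CL total of 323 to 88 without day3CL replicate 2 and 83 without day0RT replicate 3. The day1CL total of 194 became 1 without day1CL replicate 3. In white adipocyte nuclei alone, 30 of 4641 tested distal peaks were called at day7C and 156 at day7CL, with no share over all peaks beside them.

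The distal peak that rose most by size at day7CL lay between Dnajc24 and Mpped2 on chromosome 2. It had no count in the 3 day0RT mice and 13.3, 13.6 and 14.8 CPM in day7CL, at least 6.79-fold higher against a floor of 3 counts over the group (edgeR adjusted p = 0.000257). It was at 6.97, 8.08 and 12 CPM in day7C (adjusted p = 0.00526). The next, chr16:55663889-55664531, lay 175 kb from Nfkbiz, which encodes the nuclear NF-κB regulator IκBζ. It had 2.28, 0 and 0 CPM in day0RT, 1 count in all, and 18.9, 17.0 and 18.1 CPM in day7CL (adjusted p = 1.06e-05). The ratio of pooled levels was 27.5, with an exact 95% counting interval from 4.79 to 1100.4. Its values were 19.8, 8.08 and 16.3 CPM in day7C and 16.7, 16.4 and 13.5 in day3CL, with no overlap with day0RT in either.

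At day7C the leading peaks lay between Tmpo and Nedd1, with no count in day0RT and 13.9, 19.4 and 5.99 CPM in day7C, and in the non-coding gene Pvt1, 365 kb from Myc, with 0, 0 and 1.25 CPM in day0RT and 18.6, 17.8 and 12.8 in day7C (adjusted p = 0.00122 and 0.00049). The first was at least 5.85-fold higher against the floor of 3 counts, and the ratio at the second was 23.8 (95% counting interval 4.04 to 961). The first did not pass without day0RT replicate 3 (adjusted p = 0.056). At day3C they lay between Cdh2 and Dsc3 and in Etv6, which encodes an ETS family repressor, and neither passed without day0RT replicate 3 (adjusted p = 0.081 and 0.073). Their ratios of day3C to day0RT, with 2 counts and 1 count in day0RT, were 11.5 (95% counting interval 3.08 to 97.2) and 17.7 (3.05 to 713). A peak 170 kb from Gata6, a developmental GATA factor, was at 4.56, 7.62 and 2.51 CPM in day0RT, 17.5, 19.4 and 21 in day1C, 14.6, 23.9 and 44.0 in day1CL and 22.2, 23.8 and 19.8 in day7CL. Its log2 difference was 2.80 ± 0.41 at day1CL (adjusted p = 5.41e-08), which became 1.88 (adjusted p = 0.42) without day1CL replicate 3, and 2.00 ± 0.39 at day7CL (adjusted p = 0.000354).

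Some distal peaks were lower in every treated group. The peak chr4:106122727-106123801, between Gm12728 and Usp24, was at 68.5, 34.3 and 41.4 CPM in day0RT and between 0 and 28.5 CPM in all 18 treated mice. Its log2 difference from day0RT was -1.79 ± 0.25 at day7CL (adjusted p = 1.52e-08) and between -1.10 and -1.58 in the other 5 groups, past the threshold in each. The peak chr10:70875767-70876387, in a non-coding gene between Phyhipl and Bicc1, passed in all 6 comparisons, with log2 differences from -1.78 to -2.17 in 5 of them and, at day1CL, 2 counts in all and a ratio of 17.3 between day0RT and day1CL (95% counting interval 4.46 to 149). Its day0RT values were 4.56, 30.5 and 31.3 CPM and treated values ran up to 14.6, so the groups overlapped in part. Without day0RT replicate 3 it did not pass at day1C, day3C, day7C, day1CL or day3CL. The day1C call (edgeR adjusted p = 0.033) was also lost under DESeq2, without the low-count filter and in white nuclei alone. It was lost as well without day0RT replicate 2 or any single day1C mouse. The day1CL call was lost without day1CL replicate 3 (edgeR adjusted p = 0.50). The peak chr11:113224170-113224825, 442 kb from Sox9 and 395 kb from Sstr2, was at 18.3, 30.5 and 27.6 CPM in day0RT, 3.49, 3.23 and 5.99 in day7C and 5.54, 7.94 and 4.95 in day7CL (adjusted p = 0.000421 and 0.000734).

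A peak between Fstl5 and Rapgef2 was lower at day 1 of CL. It was at 31.9, 19.1 and 21.3 CPM in day0RT, 22.2, 16.6 and 16.8 in day1C, 0, 0 and 2.4 in day1CL (3 counts) and 11.3 to 29.1 in the mice of days 3 and 7. The ratio of day0RT to day1CL was 11.9, with an exact 95% counting interval from 3.76 to 60.4 (edgeR adjusted p = 6.09e-05). The call was lost without day1CL replicate 3 (adjusted p = 0.28), which held most of the day1CL adipocyte nuclei. At day1C a peak in Ghr, the growth hormone receptor gene, was at 23.3, 8.31 and 14.7 CPM against 2.28, 7.62 and 2.51 in day0RT (log2 1.87 ± 0.47, adjusted p = 0.043). This peak lay 6.88 kb from the start of a coding transcript. It was lost when any single day0RT or day1C mouse was left out, and with the replicate number as a block (adjusted p = 0.064).

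The densest run of calls lay on chromosome 11 between the coding starts of Gm11437 and Aatf, an interval that holds the 3′ part of Acaca, the gene of acetyl-CoA carboxylase 1, which makes malonyl-CoA for fatty acid synthesis. It was chosen after its values were seen. The interval held 26 distal peaks from 84268185 to 84407018, of which 20 were tested. At day3CL 19 of the 20 were higher than in day0RT and at day7C 12, while at day1C, day3C and day7CL 0 passed and at day1CL 3 passed. Coding transcript starts lay 26.7 to 70.9 kb from the peaks named here, so all are distal to gene starts and not to every transcript.

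Summed over the 26 peaks, the interval was at 139, 103 and 103 CPM in day0RT, 162, 174 and 128 in day3C and 458, 385 and 315 in day7C. Under CL it was at 334, 645 and 433 CPM in day3CL and 186, 125 and 186 in day7CL. The day1CL mice were at 14.6, 257 and 246 CPM, the first with 1 count from 29 nuclei. Cold was thus high at day 7 and CL at day 3. The peak chr11:84306832-84307397, in Acaca, was at 0, 0 and 1.25 CPM in day0RT and 14.3, 24.4 and 21.5 in day3CL, a ratio of pooled levels of 33.7 with an exact 95% counting interval from 5.91 to 1342.4 (edgeR adjusted p = 3.75e-07). The calls of the interval were fewer without single libraries, with 9 of 19 tested peaks higher at day3CL without day3CL replicate 2 and 10 of 21 without day0RT replicate 3. At day7C 3 of 21 were higher without day0RT replicate 3 and 6 of 19 without day7C replicate 1. DESeq2 called 0 of the 20 at day3CL and at day7C, with an unadjusted p under 0.05 at 19 and 17. It gave no adjusted p to 4317 of the 7428 distal peaks at day3CL and to 2104 at day7C. Its 0 calls therefore do not mean that all 20 peaks were judged. Its median log2 differences were 2.33 and 1.98, against 1.98 and 1.53 in edgeR, whose values include the prior count and are not on the same scale. In white adipocytes alone, 12 of 12 tested peaks were higher at day3CL and 2 of 12 at day7C.

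**Figure D5:**
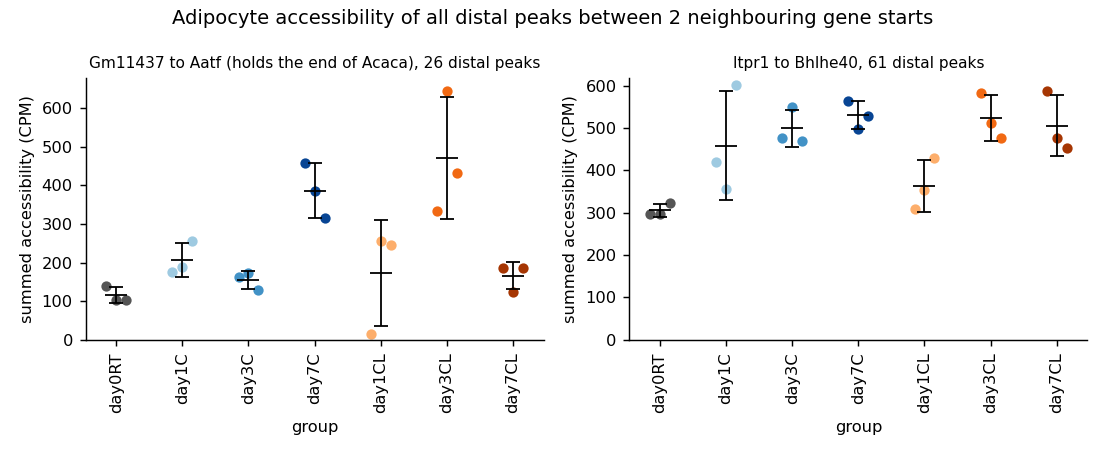
Summed accessibility in CPM (vertical axes) of all distal peaks of an interval in adipocytes by group (horizontal axes), for the Acaca interval (left) and the interval from Itpr1 to Bhlhe40 (right). Points are mice, the dash and bars are the mean and SD of 3 mice. On the left day7C and day3CL lie at or above 315 and the other groups at or below 257, and on the right day0RT lies at or below 322 and day3C, day7C, day3CL and day7CL at or above 452.

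Other intervals moved at several times. From Itpr1, a calcium release channel of the endoplasmic reticulum, to Bhlhe40, a basic helix-loop-helix repressor, 61 distal peaks summed to 297, 297 and 322 CPM in day0RT, 564, 498 and 529 in day7C and 587, 476 and 452 in day7CL, and 3 and 6 of 18 tested peaks rose. The interval with the most distal peaks of all, 193, lay between Zeb2, a zinc finger repressor, and Acvr2a, an activin receptor, over 3697 kb. Its sum was 1198, 1311 and 1202 CPM in day0RT and 1413, 1465 and 1485 in day7CL, where 6 of 55 tested peaks rose and 1 fell. From Tcf7l2, a transcription factor of the Wnt pathway, to Habp2 the sum of 42 peaks was 605, 694 and 598 CPM in day0RT, 395, 436 and 443 in day7C and 400, 441 and 448 in day7CL, and 5 of 20 tested peaks fell at day7CL. From Wdr11 to Ate1, 96 peaks summed to 908, 1121 and 973 CPM in day0RT and 755, 724 and 750 in day7CL, and 5 of 31 fell. All 4 were picked for their counts of calls. Over all tested peaks 2.3% were higher and 1.89% lower at day7CL, and 1.8% higher at day7C.

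Of the gene lists, the 47 tested adipocyte distal peaks near thermogenic genes gave 2 higher at day7CL, near Dio2 and Ppargc1a, 2 at day3CL, both near Dio2, and 2 at day7C, near Dio2 and Ebf2, with 0 lower in any group. Of 44 near adipocyte genes 1 was higher at day7CL, near Nfib. Of 325 near developmental transcription factors 10 were higher and 2 lower at day7CL, 5 of the former near Zeb2, and 5 and 3 at day7C. The shares over all tested peaks were 2.3% and 1.89% at day7CL and 1.8% and 1.34% at day7C. Over tested distal peaks they were 4.11% and 1.33% at day7CL and 2.73% and 1.29% at day7C.

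CL and cold were compared at the same day in the same fit. At day 3, 110 distal peaks were higher in CL and 66 in cold (1.48% and 0.889%, background 1.17% and 0.621%). At day 1 the counts were 15 and 18 (background 0.194% and 0.263%), and at day 7 they were 2 and 2 (0.00836% and 0.0146%). The day 3 total of 176 became 16 without day3CL replicate 2, 82 without day3CL replicate 3 and 89 to 113 without 1 day3C mouse, and the day 1 total of 33 became 0 without day1CL replicate 3, 18 without day1CL replicate 2 and 4 without day1C replicate 1. DESeq2 called 0, 5 and 0, and at day 1 it gave no adjusted p to 7136 of the 7428 distal peaks, so its day 1 count says little. At day 7, 536 distal peaks had an unadjusted p under 0.05 in edgeR.

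In the Acaca interval 19 of 20 tested peaks were higher in day3CL than in day3C, and DESeq2 called 3 of them. Without day3CL replicate 2, 5 of 19 were. The peak chr11:84406614-84407018, beyond the 3′ end of Acaca, was at 1.96, 5.03 and 2.45 CPM in day3C and 19.1, 32 and 24.5 in day3CL (log2 2.73 ± 0.28, edgeR adjusted p = 2.14e-17). At day 7 it was at 13.9, 38.8 and 22.3 CPM in cold and 5.91, 4.54 and 4.95 under CL (log2 -1.77 ± 0.29, adjusted p = 4.18e-05). The groups did not overlap at either day. The day 7 call was lost without day7C replicate 2 (adjusted p = 0.067), under DESeq2 (adjusted p = 0.62) and in white adipocytes alone (adjusted p = 0.43). A peak in Pknox2, which encodes a homeobox factor of the TALE class, was at 4.24, 3.35 and 1.23 CPM in day3C and 26.3, 34.3 and 22.1 in day3CL (log2 2.47 ± 0.28, adjusted p = 6.14e-14), and between 5.67 and 8.14 CPM in all day 7 mice. Of the peaks higher in day3C, the one between Il15 and Zfp330 was at 15.6, 16.8 and 16 CPM in cold and 2.39, 3.05 and 4.91 under CL (log2 -1.66 ± 0.32, adjusted p = 0.000162). It did not pass without day3CL replicate 2 (adjusted p = 0.096). The 2 distal peaks higher in day7CL than in day7C lay 173 kb from Myc and between 4930452B06Rik and Fhit, and both calls were lost without any single day7C mouse.

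In B cells few distal peaks were called. Of 1665 distal peaks tested among 21628, 3 were called at day1C, 0 at day3C, 0 at day7C, 1 at day1CL, 0 at day3CL and 1 at day7CL, against 0.0694%, 0.00925%, 0.0139%, 0.157%, 0.0% and 0.074% of all tested peaks. At an unadjusted p under 0.05 edgeR had 102 to 144 of them per comparison, and DESeq2 had 39 to 73 and called 0. A peak in Jarid2, which encodes a component of Polycomb repressive complex 2, was open in 11.3% of all nuclei. It was at 47.8, 50.4 and 61.8 CPM in day0RT and 85.8, 179 and 142 in day1C (log2 1.33 ± 0.18, edgeR adjusted p = 2.02e-09). It was at 120, 162 and 45.2 CPM in day7CL, where 1 mouse lay below all day0RT mice (log2 1.07 ± 0.17, adjusted p = 4.98e-06). A peak in Gphn, the gene of the scaffold protein gephyrin, was at 72.3, 79.5 and 41.2 CPM in day0RT and 85.8, 155 and 116 in day1C (log2 0.94 ± 0.18, adjusted p = 0.00117), a call lost without day0RT replicate 3 (adjusted p = 0.34) or day1C replicate 2 (adjusted p = 0.34). A peak between Klf7 and Creb1, 0.018 kb from the start of a non-coding gene, was at 24.5, 26.5 and 18.2 CPM in day0RT and 50.8, 60.7 and 44.2 in day1CL (log2 1.19 ± 0.28, adjusted p = 0.0231), the last of these from 2 counts. It was lost without day0RT replicate 1 or 3 or day1CL replicate 1 or 2 (adjusted p = 0.068 to 0.37).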

How the data were processed

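Inguinal fat of 21 mice was profiled by snATAC-seq. The authors aligned reads to mm10 with Bowtie2, sorted and filtered them with SAMtools, called peaks with MACS2 on the pooled nuclei of each cluster, removed putative doublets, annotated nuclei with Signac, and deposited a binary peak-by-nucleus matrix with the mouse and cell type of each nucleus. Here the counts are sums of these deposited 0 or 1 entries per mouse and cell type, over libraries of at least 10 nuclei, so further reads of a nucleus in a peak add nothing. The 4 sequenced samples pooled mice, and groups came from the deposited metadata. Mice were the replicates.

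Distances were measured from peak centres to the starts of 21951 coding genes (GENCODE vM21). Counts were tested with edgeR 4.0.16 (R 4.3.3, quasi-likelihood test, TMM, filterByExpr with a minimum count of 10, total of 15 and proportion of 0.7, prior count 2) over all peaks, with Benjamini-Hochberg adjustment and a threshold of 0.05. Standard errors (SE) are the log2 difference divided by the square root of the test's F value. The prior count draws edgeR's log2 differences toward 0, and the SE with them. They can therefore be smaller than the CPM values beside them imply. DESeq2 1.42.0, other filters, scalings, distances and left-out mice were alternatives. Of 41248 distal peaks, 7428 passed the filter in adipocytes. The edgeR fits were also run on simulated counts with a single mean profile and dispersion, and with changed peaks among the most open. Those settings differ from sparse distal peaks and small libraries, so no conclusion is drawn from that run. Shares were compared by permutation in scipy 1.17.1. Intervals and floors cover counting error only. Named peaks were the called distal peaks of largest fold change whose libraries averaged 5 counts or more: 5 per direction between beige and white (same direction in at least 80% of mice), 3 per class and 2 per direction in each comparison of groups. A peak that met this rule is not reported here. The members, gene lists and alternatives were chosen with earlier results of these data known, and the scaling by total entries after seeing the data. The study names 3 independent batches of experiments, without tying them to replicate numbers, and barcodes were shared only within a number. The numbers were not used as pairs, and a fit with them as a block was an alternative. Residual correlations of same-numbered mice ran from -0.0596 to 0.111 over 63 pairs. Sequences were read from GRCm38.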

Additional observations from a re-analysis of the deposited data

Results flagged for a closer look

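Beyond the 3′ end of Acaca and inside it, 2 distal peaks differed between CL and cold in opposite directions at day 3 and day 7. In white and beige adipocytes together, every day3CL mouse lay above every day3C mouse and every day7CL mouse below every day7C mouse. The difference between the days was not itself tested, and both peaks belong to an interval chosen for its calls. The peak chr11:84350982-84351716 was at 8.59 to 11.7 CPM in day3C and 19 to 38.1 in day3CL (log2 1.43, edgeR adjusted p = 5.41e-07). At day 7 it was at 18 to 34.9 CPM in day7C and 4.95 to 7.76 in day7CL (log2 -1.66, adjusted p = 3.41e-05). The peak chr11:84406614-84407018, whose values are given in the report, had log2 differences of 2.73 at day 3 and -1.77 at day 7. The day 7 call of each was lost under DESeq2 and in white nuclei alone.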

How the results depend on the processing

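No named peak and no share difference changed direction under the alternatives run. The balance of higher and lower calls did move with scaling, between beige and white adipocytes, among the classes and in some treated groups against day0RT. In B cells at day1CL, 29 higher and 5 lower of all tested peaks became 25 and 39 with total entries as library size. Of 286 alternative values of the cell type shares, 283 stayed on the same side of the threshold, as did all 114 of the treated shares, whose smallest possible p is above it. Of 513 counts of calls, 379 lay within 1.5 times the reported count. Of 1414 alternative values for the 68 named peaks, 1262 passed the threshold, 131 did not and 21 had no adjusted p. For comparisons of groups, both tallies include fits that left out a mouse of neither group compared. Such a fit keeps all mice of the comparison, so the tallies overstate how well the calls held. Of the 50 named peaks that DESeq2 was run on, 15 passed, 14 did not and 21 had no adjusted p. These 21 account for all values without an adjusted p. The 15 include every named peak of the beige and white comparison, 5 in each direction. The 14 and the 21 all came from treated groups against day0RT or CL against cold. Only the remainder of the 15 came from those comparisons, so most of their named peaks did not pass or had no adjusted p under DESeq2. Leaving out some single mouse lost 28 named peaks, 15 of them without day0RT replicate 3 and 9 without day1CL replicate 3. All 28 came from treated groups against day0RT or CL against cold. The limits are small libraries and counts of a few nuclei per peak. A stricter rule counts fewer peaks by construction. For the other differences the cause was not tested.

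Counts in adipocytes are given in the order day1C, day3C, day7C, day1CL, day3CL and day7CL, those of CL against cold by day, those of B cells for day1C, day1CL and day7CL, and those of classes as adipocytes, progenitors, VEC, the VSMC cluster, myeloid, B and T cells. The limit of 200 kb left 18910 distal peaks, with 15, 66, 133, 83, 155 and 189 called in adipocytes, 19, 63 and 1 between CL and cold, 0, 0 and 0 in B cells, 490 between beige and white, and 156, 145, 63, 78, 116, 141 and 143 by class. The starts of all annotated genes left 8976, with 8, 22, 68, 30, 79 and 82 in adipocytes, 6, 56 and 2 between CL and cold, 0, 0 and 0 in B cells, 239 between beige and white, and 82, 87, 43, 43, 57, 59 and 60 by class, and the APC1 share difference was 0.102 percentage points. All coding transcript starts left 26626 peaks, and a limit of 50 kb 72291.

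DESeq2 called 0, 0, 4, 5, 0 and 2 distal peaks in adipocytes, 0, 5 and 0 between CL and cold and 0, 0 and 0 in B cells. Without a filter on low counts the numbers were 2, 34, 160, 67, 186 and 226, 5, 78 and 2 and 1, 0 and 0, and 9410 between beige and white (1301 higher in beige). White nuclei alone gave 14, 64, 30, 79, 183 and 156 in adipocytes, and 15 and 0 between CL and cold at days 1 and 7. Libraries of at least 30 nuclei gave 4096, 4399, 452, 945, 1853, 1498 and 1423 by class. More distal peaks were tested there than the 1059 of the main fit, so these counts do not compare directly with the main ones. The share differences with such libraries were -3.72 points for VEC (2 mice, exact p = 0.5) and -4.18 for the VSMC cluster (3 mice, exact adjusted p = 0.275). The mouse as a block gave 1766 between beige and white, and 728, 709, 372 and 373 for adipocytes, progenitors, VEC and the VSMC cluster. Total entries as library size, added after seeing the data, gave 3 and 2 in B cells at day1CL and day7CL.

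Leaving out single mice gave 1 to 44, 17 to 136, 66 to 319, 1 to 207, 83 to 342 and 58 to 428 calls in adipocytes, 0 to 37, 16 to 188 and 2 to 5 between CL and cold, and 860 to 1911 between beige and white. In B cells it gave 1 to 3 at day1C, 0 to 1 at day3C, 0 to 1 at day1CL and 1 to 2 at day7CL. Leaving out a replicate number of every group gave 270 to 641 for progenitors and 124 to 276 for VEC.

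The replicate numbers are shared between groups, but deviations of same-numbered mice correlated at -0.0596 to 0.111 (median 0.000766, 63 pairs, 1 over 0.1), and the numbers were not taken as pairs. With the replicate number as a block the adipocyte counts at day1C and day3C were 18 and 85, and the B cell counts at day1CL and day7CL were 2 and 2. The block lost 4 named peaks and kept every other count within 1.5 times the reported one.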

Other observations

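In white adipocyte nuclei alone, the distal peaks called higher in beige than in white adipocytes were also followed over the groups. Of 310 such peaks tested, 25 were higher in day3CL than in day0RT and 0 lower (8.06%), beside 138 higher of all 4641 distal peaks tested (2.97%). At day7CL 24 were higher and 1 lower (7.74%, beside 2.48% of all distal peaks), and at day1CL 6 were higher and 1 lower (1.94%, beside 0.733%). In the cold 0 were higher and 0 lower at day1C, 2 and 1 at day3C (0.645% higher, beside 0.97% of all distal peaks), and 3 and 0 at day7C (0.968%, beside 0.56%). Of 597 distal peaks called higher in white adipocytes, 3 were higher and 16 lower at day1CL. These were 0.503% and 2.68%, beside 0.733% and 0.97% of all distal peaks. At day3CL the counts were 14 and 13 (2.35% and 2.18%, beside 2.97% and 0.97%). At day7CL they were 9 and 13 (1.51% and 2.18%, beside 2.48% and 0.883%). At day1C they were 1 and 5 (0.168% and 0.838%, beside 0.0862% and 0.215%). At day3C they were 9 and 3 (1.51% and 0.503%, beside 0.97% and 0.409%), and at day7C 4 and 1 (0.67% and 0.168%, beside 0.56% and 0.0862%). The same white nuclei entered the comparison with beige adipocytes, so these counts are a description.

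From 2010111I01Rik to Fancc on chromosome 13, 66 distal peaks summed to 187, 244 and 287 CPM in the adipocytes of day0RT and 413, 415 and 390 in day7C, without overlap. In day7CL they summed to 469, 361 and 279, where 1 mouse lay within the day0RT range. Of 14 tested peaks 3 rose at each of these times. The interval was picked for its calls.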
